A study of Sus scrofa with 10 samples.

Results

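The collagen gene family was followed in the right ventricle of pigs with chronic thromboembolic pulmonary hypertension (CTEPH), a disease in which unresolved clots obstruct the pulmonary arteries and load the right ventricle. Members were all genes whose symbol is COL, a number, A and a number, which names 1 chain of 1 collagen type. The deposited table held values for 31 of the 40 such genes that carry an Ensembl pig identifier, among 12378 genes that could be given a symbol. The rule used names only, although it was chosen with earlier results of these data known. Right ventricular biopsies were taken from 5 CTEPH pigs, with libraries s1, s3, s4, s5 and s9, and from 5 Sham pigs, with libraries s2, s6, s7, s8 and s10, with 1 RNA library per pig. The labels give both groups as pigs with no genotype, and strain, age, sex, drugs, the way the disease was induced and its duration were not stated in the labels.

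Collagens are proteins of 3 chains wound into a triple helix, and each chain comes from its own gene. Fibrillar collagens form the load-bearing fibres of the heart's interstitium, with collagens I and III the main ones and collagen V inside their fibrils. FACIT collagens (fibril-associated, with interrupted triple helices) sit on the surface of those fibrils. Collagen IV builds the sheet of basement membrane around each cardiomyocyte and capillary, short chain collagens form hexagonal nets in vessel walls and other membranes, and transmembrane collagens anchor in the cell surface. In the pressure-loaded ventricle, cardiac fibroblasts are the best known source of fibrillar collagen.

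By these classes the 31 members were 10 fibrillar, 5 basement membrane, 4 FACIT, 1 short chain and 3 transmembrane chains, and 8 chains of other types. The other types were the beaded filament chains of collagen VI, the basement membrane zone collagens XV and XVIII, and collagen XXVIII. COL2A1, COL4A4, COL8A2, COL9A1, COL9A3, COL10A1, COL19A1, COL22A1 and COL25A1 have an identifier but were not analysed here. COL7A1, COL9A2, COL20A1 and COL26A1 were not paired with an identifier and were not analysed here either.

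Values are quantile-normalized log2 values, so 1 unit is a doubling, and levels can be compared between pigs for 1 gene but not between genes of different length. Relative depth was lowest in s9, at 0.724, and highest in s4, at 1.53, and its mean was 1.05 ± 0.298 in CTEPH and 1.01 ± 0.298 in Sham (± SD over 5 pigs each; by two-sided exact permutation, p = 0.825). The tissue carried its defining transcripts: MYL2, the ventricular myosin light chain, lay between 18.51 and 19.05 in Sham and between 19.57 and 20.15 in CTEPH, and was itself called higher. In Sham library s6 the Y-linked genes KDM5D and EIF1AY were at 0.16 and 1.07, against at least 8.31 and 10.69 in every other library.

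Of the 31 collagen genes, 4 rose in CTEPH and 1 fell, where a call means an adjusted p under 0.05 (limma, Benjamini-Hochberg over all genes). The rising genes came from 4 different classes: short chain COL8A1, basement membrane COL4A5, FACIT COL12A1 and transmembrane COL13A1, with log2 differences of 1.56 to 1.80. The falling gene was the fibrillar COL27A1, at -0.91. Among all genes 4.62% were called, 2.83% higher and 1.79% lower, against 16.1% of the collagen genes. An unadjusted p under 0.05 was reached by 11 of the 31, or 35.5%, against 20.3% of all genes. The family did not move as a whole: 15 members had a positive and 16 a negative difference, with a median of -0.05 beside -0.03 over all genes.

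**Figure D1:**
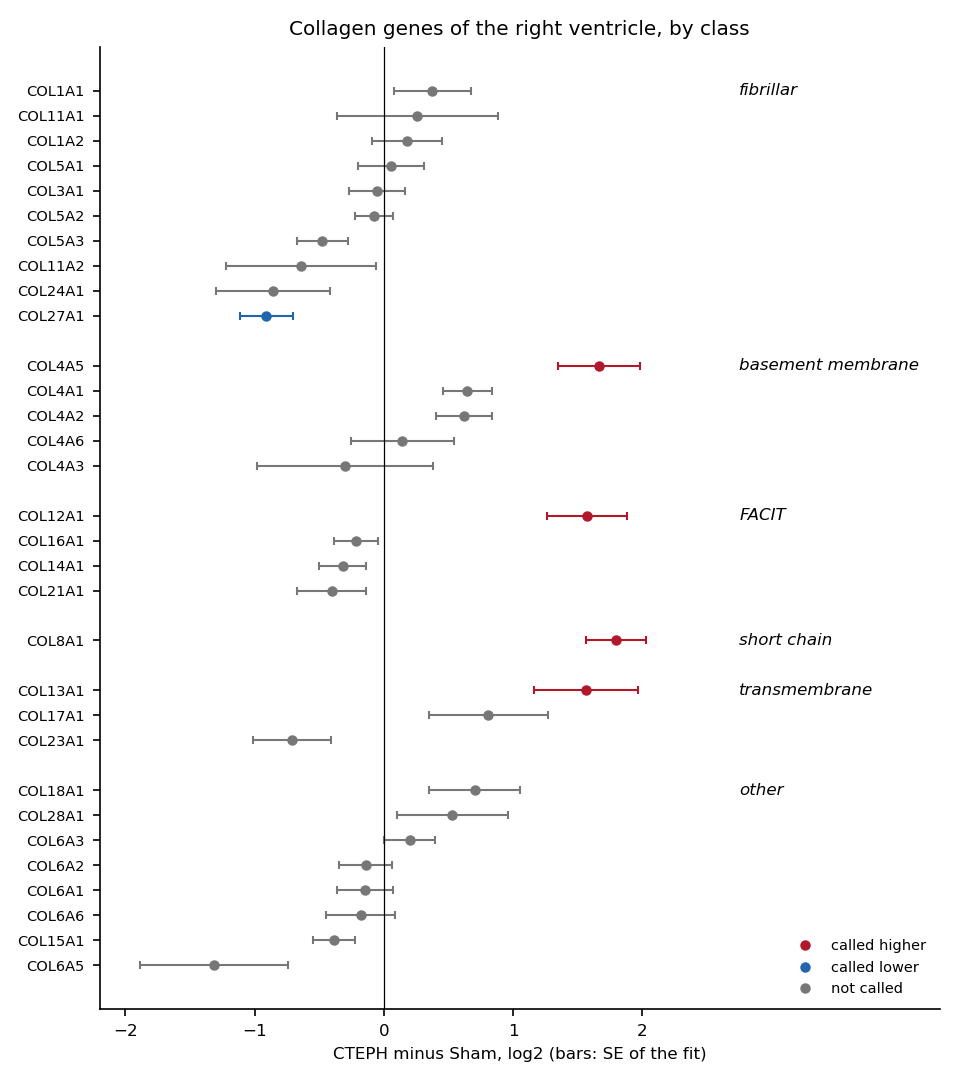
Difference between CTEPH and Sham on the log2 scale for each of the 31 collagen genes, grouped by class, with the standard error of the fit as bars. Points at the right mark COL8A1, COL4A5, COL12A1 and COL13A1 at 1.56 to 1.80, COL27A1 is the called point on the left at -0.91, and the main fibrillar genes COL1A1, COL1A2 and COL3A1 lie between -0.05 and 0.38.

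COL8A1 encodes the alpha 1 chain of collagen VIII, a short chain collagen made by vascular and interstitial cells (chromosome 13, 159216138 to 159374718 of Sscrofa11.1). Its log2 value in the CTEPH libraries was 10.94 in s1, 11.57 in s3, 12.04 in s4, 11.51 in s5 and 10.83 in s9. In Sham it was 9.77 in s2, 9.82 in s6, 9.40 in s7, 9.09 in s8 and 9.82 in s10. All 5 CTEPH pigs lay above all 5 Sham pigs, with s4 highest and s1 and s9 lowest within CTEPH. The mean was 11.38 ± 0.495 in CTEPH and 9.58 ± 0.324 in Sham (± SD over 5 pigs each), a difference of 1.80 ± 0.23 (SE), or 3.47-fold, with an adjusted p of 7.55e-04 by limma. It passed in all 10 refits that left out 1 library each, where the difference ran from 1.63 to 1.93.

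COL12A1 encodes collagen XII, a FACIT that binds collagen I fibrils in tissues under tension (chromosome 1, 90744409 to 90875127). It was at 10.005 in s1, 10.86 in s3, 11.61 in s4, 10.90 in s5 and 9.73 in s9. The Sham values were 9.31 in s2, 9.05 in s6, 8.82 in s7, 8.68 in s8 and 9.39 in s10. The groups did not overlap, and s4 again was highest and s1 and s9 nearest to Sham. The difference was 1.57 ± 0.31 (SE), or 2.97-fold, from 9.05 ± 0.303 in Sham to 10.62 ± 0.756 in CTEPH (± SD over 5 pigs each; adjusted p = 0.0120, limma), and all 10 refits without 1 library kept the call. The other 3 FACIT genes had negative differences that did not pass: COL16A1, at -0.21 ± 0.17, COL14A1, the nearest relative of COL12A1, at -0.32 ± 0.18, and COL21A1, known from vessel walls, at -0.40 ± 0.27.

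COL14A1 values were 11.76 in s1, 11.87 in s3, 12.34 in s4, 12.47 in s5 and 11.98 in s9 for CTEPH (chromosome 4, 18690197 to 18925111). In Sham they were 12.26 in s2, 12.81 in s6, 12.03 in s7, 12.33 in s8 and 12.59 in s10. The groups overlapped, with s1, s3 and s9 below every Sham pig and none above. The difference between the FACIT relatives was therefore taken within each library: COL12A1 minus COL14A1 was -1.46 ± 0.605 in CTEPH and -3.36 ± 0.340 in Sham (± SD over 5 pigs each). That shift of 1.89 separated all CTEPH from all Sham pigs (two-sided exact permutation p = 0.00794, the smallest this design allows; adjusted p = 0.0476 over 12 pairs). COL12A1 had already been called alone, so the pair repeats part of that result. At this smallest p a single pair would not pass over 12 pairs, so the pass also rests on another pair reaching the same p.

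Among the basement membrane chains 4 of 5 had a positive difference, of which 1 was called. Collagen IV is laid down mainly as a trimer of COL4A1 and COL4A2 chains, while COL4A5 joins COL4A3 and COL4A4 in some membranes and COL4A6 in others. COL4A5 (chromosome X, 88958837 to 89183306) was at 9.79 in s1, 11.90 in s3, 10.79 in s4, 11.06 in s5 and 10.46 in s9. In Sham it was at 8.92 in s2, 9.36 in s6, 8.66 in s7, 9.45 in s8 and 9.30 in s10. Every CTEPH pig exceeded every Sham pig, and here s3 rather than s4 was highest. The rise was 1.66 ± 0.32 (SE), or 3.17-fold, from 9.14 ± 0.333 to 10.80 ± 0.775 (± SD over 5 pigs each; adjusted p = 0.0102, limma), and it passed in all 10 refits without 1 library. Without Sham library s6, the one with Y-linked transcripts near 0, the X-linked COL4A5 differed by 1.72 with an adjusted p of 0.0210 by limma.

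COL4A6, the X-linked partner of COL4A5, did not follow it. Counts here and below are read back from the low values up to a common factor and are not adjusted for depth. Those of COL4A6 were 43 to 117 in CTEPH and 21 to 150 in Sham, and the groups overlapped widely. The difference was 0.14 ± 0.40 (SE; 95% interval -0.72 to 1.01; adjusted p = 0.881, limma). Within libraries COL4A5 minus COL4A6 was 3.82 ± 0.526 in CTEPH and 2.30 ± 0.494 in Sham (± SD over 5 pigs each), a shift of 1.52 with no overlap (two-sided exact permutation p = 0.00794; adjusted p = 0.0476 over 12 pairs). COL4A5 had already been called alone, so this pair too repeats part of that result. It and the COL12A1 pair passed only together, since neither would pass over 12 pairs without the other at the same p. COL4A3 was scarcely present, with 3 to 21 counts a library, and its difference of -0.30 ± 0.68 (SE) did not pass.

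The 2 main collagen IV chains were higher in 4 of the 5 CTEPH pigs and short of the threshold over all 10. COL4A1 (chromosome 11, 76858332 to 76997409) was at 15.20 in s1, 15.48 in s3, 15.74 in s4, 15.48 in s5 and 14.58 in s9. Its Sham values lay close together, at 14.69 in s2, 14.73 in s6, 14.62 in s7, 14.56 in s8 and 14.64 in s10. Library s9 fell inside the Sham range, while the other CTEPH pigs all exceeded it. The difference was 0.65 ± 0.19 (SE; 95% interval 0.24 to 1.05; adjusted p = 0.0724, limma).

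COL4A2 lies beside COL4A1 (76996885 to 77161617), sharing 525 bases with it in RefSeq, and the strand setting of the counting is not given, so reads of that stretch may be counted for either. It was at 14.32 in s1, 14.84 in s3, 15.03 in s4, 14.78 in s5 and 13.73 in s9, and in Sham at 14.08 in s2, 14.055 in s6, 13.84 in s7, 13.65 in s8 and 13.97 in s10. The same 4 CTEPH pigs lay above all Sham pigs and s9 within them, for a difference of 0.62 ± 0.22 (SE; adjusted p = 0.127, limma). COL4A1 minus COL4A2 was 0.76 ± 0.101 in CTEPH and 0.73 ± 0.117 in Sham (± SD over 5 pigs each; by two-sided exact permutation, p = 0.675; adjusted p = 0.745 over 12 pairs), the narrowest spread of the 12 pairs in both groups. Leaving out s9 raised COL4A1 to 0.83 (adjusted p = 0.00394, limma) and COL4A2 to 0.82 (adjusted p = 0.0111, limma). No other refit without 1 library passed for either gene, with adjusted p up to 0.160 for COL4A1 and 0.256 for COL4A2 (limma). With library weights, which gave s9 a weight of 0.508 and s1 one of 0.476, both passed (adjusted p = 0.0116 and 0.0244, limma).

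**Figure D2:**
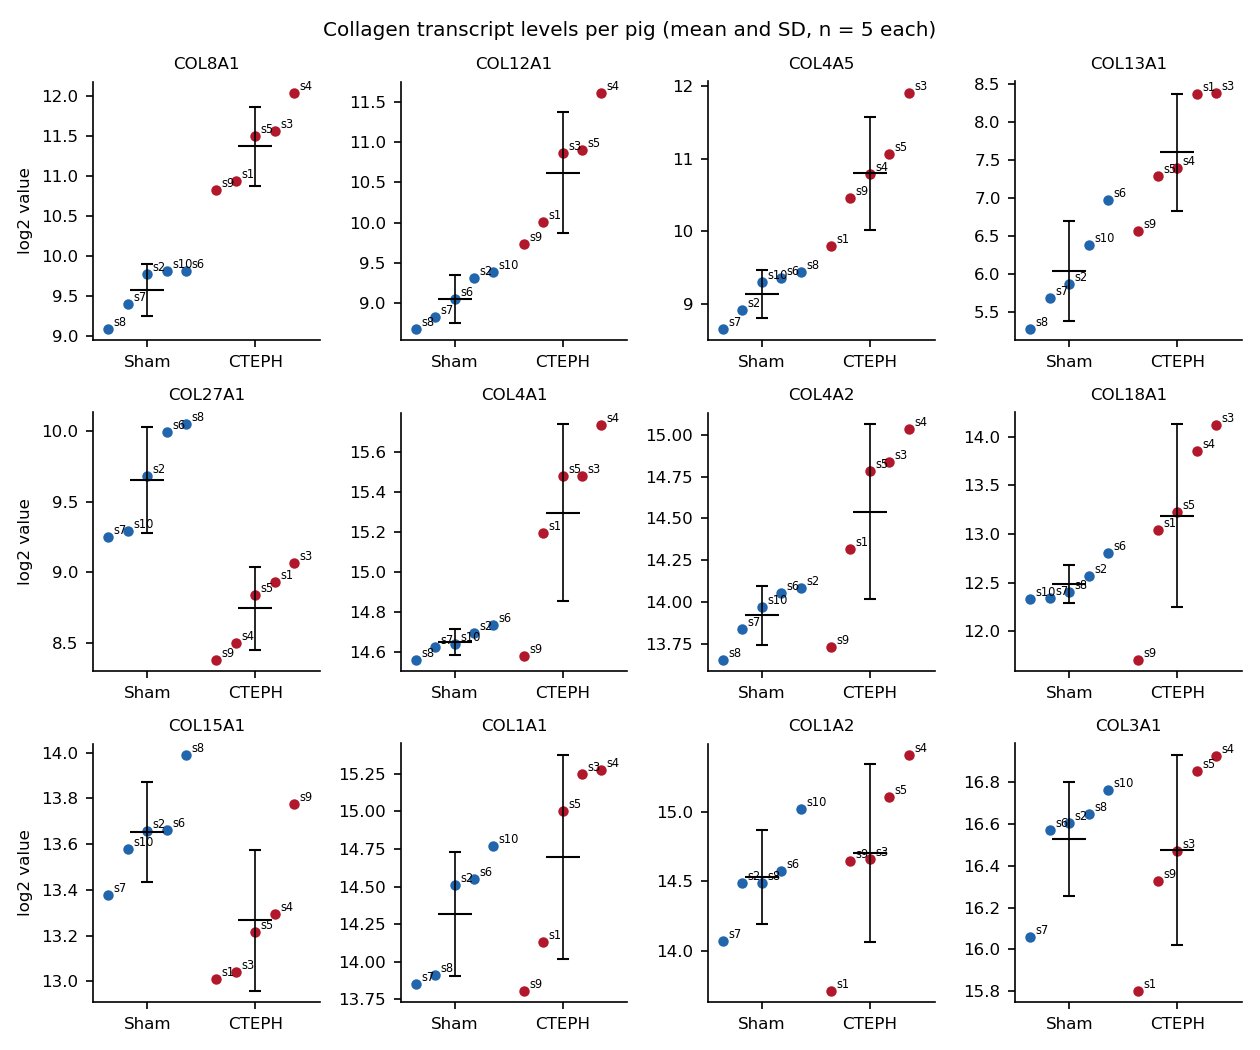
Log2 values of 12 collagen genes in each pig, Sham in blue and CTEPH in red, labelled by library, with the mean and SD (n = 5 each) as black bars; each panel has its own scale. COL8A1, COL12A1, COL4A5 and COL27A1 show no overlap between groups, s9 lies within or below the Sham range for COL4A1, COL4A2, COL18A1 and COL1A1, and the CTEPH points of COL1A1, COL1A2 and COL3A1 spread to both sides of Sham.

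Transmembrane COL13A1 rose from low counts. Collagen XIII is found at cell adhesions and at the neuromuscular junction (chromosome 14, 72786780 to 72953093). Its counts were 162 in s1, 155 in s3, 141 in s4, 86 in s5 and 35 in s9, and in Sham 32 in s2, 94 in s6, 18 in s7, 16 in s8 and 33 in s10. On the log2 scale these were 8.37, 8.38, 7.397, 7.30 and 6.58 against 5.87, 6.98, 5.69, 5.29 and 6.38, so 4 of 5 CTEPH pigs exceeded all Sham pigs and s9 lay below Sham library s6. The difference was 1.56 ± 0.40 (SE), or 2.96-fold (adjusted p = 0.0433, limma), and 8 of the 10 refits without 1 library lost the call, the highest adjusted p being 0.102 (limma), and those without CTEPH s9 or Sham s6 kept it. The other transmembrane chains did not pass: the epithelial anchor COL17A1 was at 0.81 ± 0.46 (SE) with 3 to 30 counts a library (adjusted p = 0.355, limma). COL23A1 was at 6.84 in s1, 6.13 in s3, 5.61 in s4, 6.67 in s5 and 6.13 in s9, and in Sham at 6.29 in s2, 7.39 in s6, 6.81 in s7, 7.36 in s8 and 7.07 in s10. Libraries s3, s4 and s9 lay below every Sham pig, and its difference was -0.71 ± 0.30 (SE; adjusted p = 0.207, limma).

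COL27A1 was the falling member. Collagen XXVII is a fibrillar chain best known from cartilage, with a triple helix shorter than those of collagens I to III (chromosome 1, 254768576 to 254924893). It was at 8.93 in s1, 9.07 in s3, 8.50 in s4, 8.84 in s5 and 8.38 in s9, and in Sham at 9.68 in s2, 9.99 in s6, 9.25 in s7, 10.05 in s8 and 9.29 in s10. All CTEPH pigs lay below all Sham pigs, although s3 and Sham s7 were close. The fall was 0.91 on the log2 scale, with an SE of 0.21, from 9.65 ± 0.377 to 8.74 ± 0.293 (± SD over 5 pigs each; adjusted p = 0.0258, limma). The call was lost without CTEPH s4 (adjusted p = 0.0671) or without Sham s2 (0.0566), s6 (0.0721) or s8 (0.0670), by limma. COL24A1, the closest relative of COL27A1 in the family, was at -0.86 ± 0.44 (SE; adjusted p = 0.298, limma), with 27 to 70 counts in CTEPH and 28 to 133 in Sham.

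With COL8A1, COL4A5, COL12A1 and COL27A1, 4 members of 31 (12.9%) had groups that did not overlap, against 6.57% of all genes.

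The chains of the main cardiac fibres did not pass. COL1A1 (chromosome 12, 26379087 to 26397180) was at 14.13 in s1, 15.25 in s3, 15.28 in s4, 15.01 in s5 and 13.81 in s9. In Sham it was at 14.51 in s2, 14.55 in s6, 13.85 in s7, 13.91 in s8 and 14.77 in s10. Libraries s3, s4 and s5 exceeded every Sham pig, s1 lay within the Sham range and s9 below it. The mean difference was 0.38 ± 0.30 (SE; 95% interval -0.26 to 1.01; adjusted p = 0.521, limma), with an SD of 0.679 in CTEPH and 0.412 in Sham.

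COL1A2, whose chain joins 2 COL1A1 chains in collagen I, was at 13.71 in s1, 14.66 in s3, 15.41 in s4, 15.10 in s5 and 14.65 in s9 (chromosome 9, 74174484 to 74210407). Its Sham values were 14.49 in s2, 14.57 in s6, 14.07 in s7, 14.49 in s8 and 15.02 in s10. Only s4 and s5 lay above all Sham pigs and s1 lay below them, for a difference of 0.18 ± 0.27 (SE; 95% interval -0.41 to 0.77; adjusted p = 0.764, limma). COL1A1 minus COL1A2 ran from -0.84 in s9 to 0.59 in s3 within CTEPH and from -0.58 to 0.02 within Sham (two-sided exact permutation p = 0.524; adjusted p = 0.698 over 12 pairs).

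COL3A1, the chain of the finer and more compliant fibres, was at 15.80 in s1, 16.47 in s3, 16.93 in s4, 16.85 in s5 and 16.33 in s9 (chromosome 15, 93556914 to 93595678). Sham was at 16.61 in s2, 16.57 in s6, 16.06 in s7, 16.65 in s8 and 16.76 in s10. The CTEPH pigs lay on both sides of Sham, and the difference was -0.05 ± 0.22 (SE; 95% interval -0.53 to 0.42; adjusted p = 0.925, limma). The collagen I to III balance, taken as COL1A1 minus COL3A1, was -1.78 ± 0.473 in CTEPH and -2.21 ± 0.305 in Sham (± SD over 5 pigs each). This shift of 0.43 did not pass (two-sided exact permutation p = 0.135; adjusted p = 0.231 over 12 pairs). Without s9 it was 0.61 with an exact permutation p of 0.00794 and an adjusted p of 0.0238.

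Collagen V and XI chains set the diameter of fibrils from within. COL5A1 (chromosome 1, 273934219 to 274083264) was at 12.31 in s1, 12.83 in s3, 13.61 in s4, 13.06 in s5 and 11.98 in s9. In Sham it was at 12.86 in s2, 12.88 in s6, 12.33 in s7, 12.68 in s8 and 12.76 in s10, so the CTEPH pigs again spread to both sides, with a difference of 0.06 ± 0.25 (SE). COL5A2, which neighbours COL3A1 on chromosome 15, was at -0.08 ± 0.15 (SE; 95% interval -0.40 to 0.25), the smallest standard error among the members.

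COL5A3 (chromosome 2, 68828197 to 68869914) was at 11.86 in s1, 11.76 in s3, 12.002 in s4, 11.76 in s5 and 11.46 in s9, and in Sham at 12.11 in s2, 12.71 in s6, 12.40 in s7, 12.45 in s8 and 11.55 in s10. Sham s10 lay among the CTEPH pigs while the other Sham pigs exceeded them, and the difference of -0.48 ± 0.20 (SE) did not pass (adjusted p = 0.192, limma). COL11A1 was split within CTEPH, with 43, 65 and 36 counts in s3, s4 and s5 but 8 in s1 and 2 in s9, beside 10 to 26 in Sham. Its mean difference was 0.26 ± 0.63 (SE), and COL11A2, at 5 to 66 counts, was at -0.64 ± 0.58 (SE). Neither passed.

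Collagen VI, whose beaded filaments link cells to the fibres, had no call in its 3 common chains. COL6A1 was at 13.30 in s1, 13.48 in s3, 13.71 in s4, 13.12 in s5 and 12.49 in s9, and in Sham at 13.36 in s2, 13.81 in s6, 13.04 in s7, 13.44 in s8 and 13.17 in s10. COL6A3 was at 13.26 in s1, 13.31 in s3, 13.73 in s4, 13.67 in s5 and 12.86 in s9, and in Sham at 13.42 in s2, 13.60 in s6, 12.92 in s7, 12.80 in s8 and 13.10 in s10. The groups overlapped for both genes, with s9 below every Sham pig for COL6A1 and s4 and s5 above every one for COL6A3. The differences were -0.15 ± 0.22 for COL6A1, -0.14 ± 0.20 for COL6A2 and 0.20 ± 0.20 for COL6A3 (SE), none of which passed (adjusted p of 0.624 to 0.755, limma).

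The alternative collagen VI chains varied more. COL6A5 (chromosome 13, 2029543 to 2174404) had counts of 27 in s1, 51 in s3, 12 in s4, 84 in s5 and 40 in s9, and in Sham of 148 in s2, 138 in s6, 115 in s7, 34 in s8 and 47 in s10. The 3 highest Sham pigs exceeded all CTEPH pigs and the other 2 lay among them, for a difference of -1.32 ± 0.57 (SE; adjusted p = 0.214, limma). Without CTEPH library s4, the one with 12 counts, it was -0.76 (adjusted p = 0.3595, limma). Its neighbour COL6A6 was at -0.18 ± 0.27 (SE).

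Collagens XV and XVIII are proteoglycan-bearing collagens of the basement membrane zone, and the C-terminal piece of collagen XVIII is endostatin. COL18A1 (chromosome 13, 207907835 to 207984082) was at 13.04 in s1, 14.12 in s3, 13.86 in s4, 13.23 in s5 and 11.71 in s9, and in Sham at 12.57 in s2, 12.80 in s6, 12.34 in s7, 12.40 in s8 and 12.33 in s10. Here 4 CTEPH pigs lay above every Sham pig and s9 below every one, and the difference was 0.70 ± 0.35 (SE; adjusted p = 0.282, limma). Without s9 it was 1.07 with an adjusted p of 0.0123 (limma). No other refit without 1 library passed, and the highest adjusted p was 0.497 (limma).

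COL15A1 (chromosome 1, 240718128 to 240829188) had the mirrored arrangement. It was at 13.01 in s1, 13.04 in s3, 13.295 in s4, 13.22 in s5 and 13.78 in s9, and in Sham at 13.66 in s2, 13.66 in s6, 13.38 in s7, 13.99 in s8 and 13.58 in s10, with 4 CTEPH pigs below all Sham pigs and s9 within them. Its difference was -0.39 ± 0.17 (SE; adjusted p = 0.209, limma). COL15A1 minus COL18A1 was 0.08 ± 1.20 in CTEPH and 1.16 ± 0.273 in Sham (± SD over 5 pigs each; by two-sided exact permutation, p = 0.0794; adjusted p = 0.231 over 12 pairs). Without s9 the shift was -1.58 (exact permutation p = 0.00794, adjusted p = 0.0238). COL28A1, known from the sheaths of peripheral nerves, was at 0.53 ± 0.43 (SE) with 12 to 143 counts a library.

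**Figure D3:**
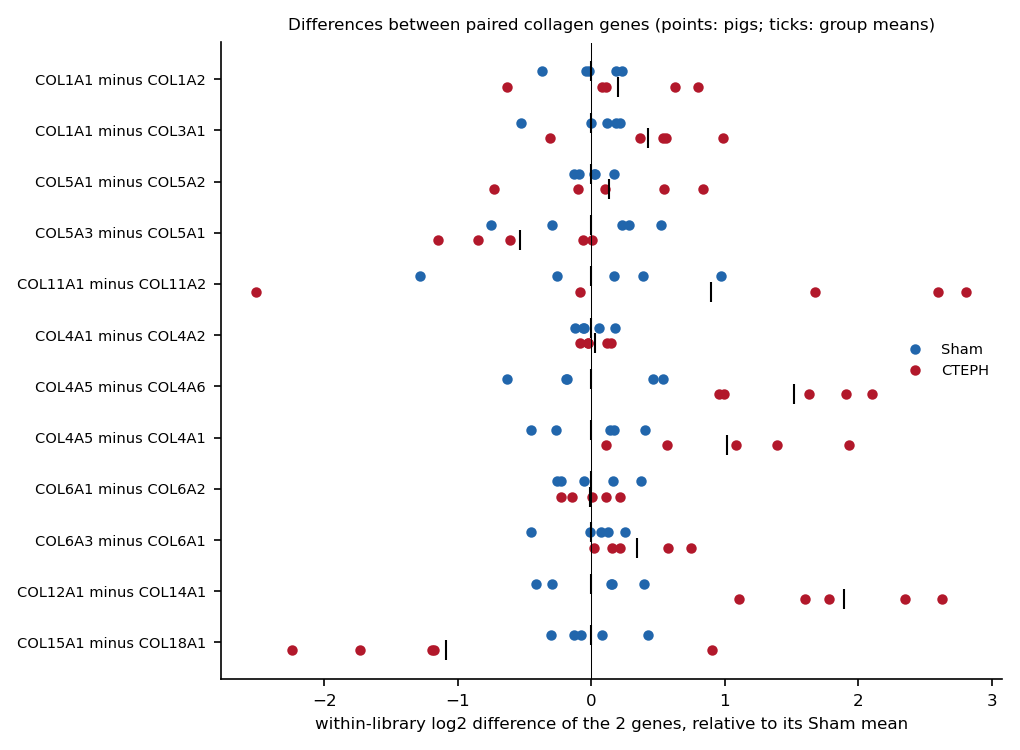
Within-library log2 difference of 2 collagen genes for 12 pairs, shown relative to the Sham mean of that pair, with 1 point per pig and ticks at the group means. CTEPH and Sham are apart for COL4A5 minus COL4A6 and for COL12A1 minus COL14A1, coincide for COL4A1 minus COL4A2 and COL6A1 minus COL6A2, and 1 CTEPH pig, s9, lies to the right of Sham for COL15A1 minus COL18A1.

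Of the 12 pairs 2 passed, 4 without CTEPH library s9, where COL1A1 minus COL3A1 and COL15A1 minus COL18A1 joined them. These added pairs did not pass when any other library was left out. Even the smallest possible exact permutation p, 0.00794, does not pass over 12 pairs for a single pair. Each pass thus rests on other pairs with a p as low, and the passes are not separate results. COL4A5 minus COL4A1 shifted by 1.02 (two-sided exact permutation p = 0.0317; adjusted p = 0.127 over 12 pairs), so whether COL4A5 rose more than COL4A1 was not shown. Without CTEPH library s1 that shift was 1.24 and passed (exact permutation p = 0.00794, adjusted p = 0.0317).

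The CTEPH pigs differed from each other in how many collagen genes they carried outside the Sham range. Library s4 had 15 of the 31 above every Sham pig, s5 15, s3 11, s1 8 and s9 4. Over all genes these shares were nearly equal, from 22.7% to 24.7%, against 48.4% of collagen genes in s4 and s5, 35.5% in s3, 25.8% in s1 and 12.9% in s9. Below every Sham pig were 12 members in each of s1 and s9, 7 in each of s3 and s4, and 3 in s5, beside 24.6% to 28.2% of all genes. Relative depth was lowest in s9 and highest in s4, at 1.02 in s1, 0.916 in s3 and 1.09 in s5, and its part in these counts was not tested.

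**Figure D4:**
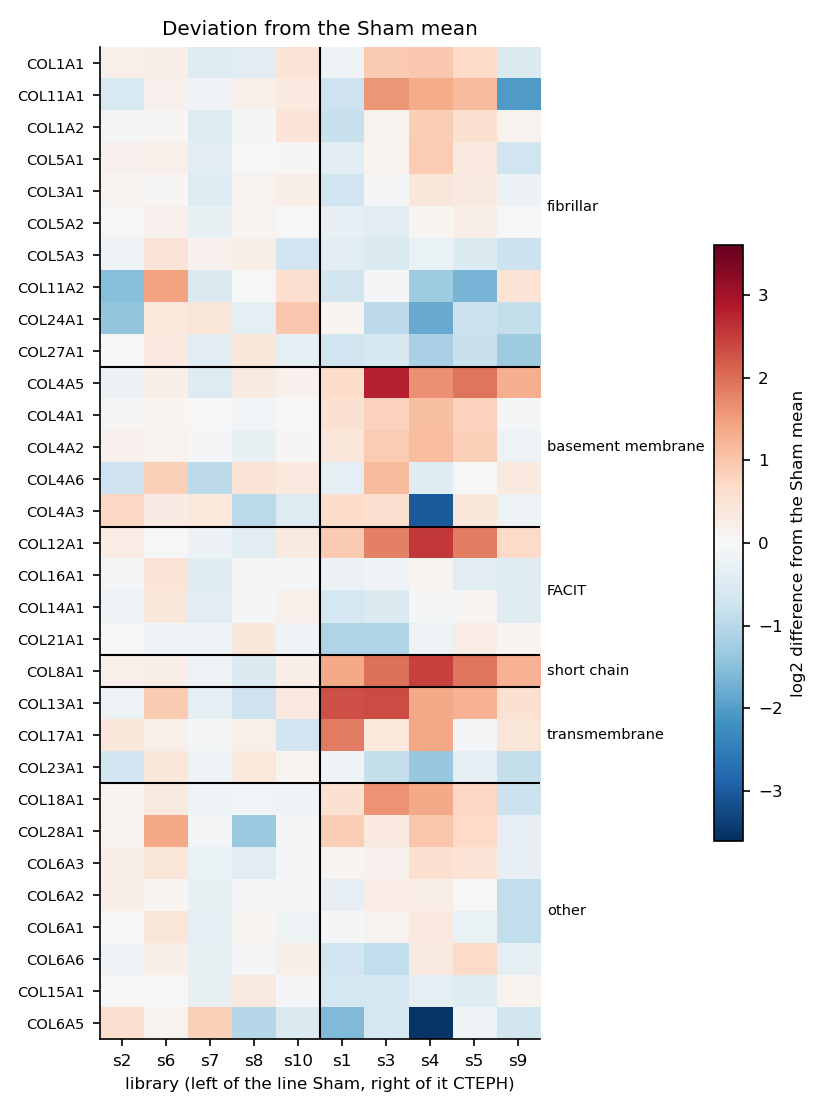
Log2 deviation of each collagen gene from its own Sham mean, by library, with Sham to the left and CTEPH to the right of the vertical line and classes divided by horizontal lines. COL8A1, COL12A1, COL4A5 and COL13A1 are red in all 5 CTEPH columns and COL27A1 blue, while COL1A1, COL5A1 and COL11A1 are red in s3, s4 and s5 and blue in s1 and s9.

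Fibroblasts make most interstitial collagen, so their markers were read beside the collagen genes. Of 10 fibroblast markers 9 were measured. None passed by limma, and 5 reached a p under 0.05 before adjustment, beside 20.3% of all genes. The summed log2 level was 16.35 to 16.83 in CTEPH and 16.42 to 17.26 in Sham. The list's median difference was 0.23, and its members lay on both sides of 0. LAMC3 was at 1.70 ± 0.52, PI16 at 1.26 ± 0.55, DPT at 0.43 ± 0.20, TCF21 at 0.29 ± 0.22 and MFAP5 at 0.23 ± 0.26 (SE). GSN was at -0.75 ± 0.20, PDGFRA at -0.46 ± 0.20, LUM at -0.14 ± 0.37 and DCN at -0.03 ± 0.17 (SE). Of 7 myofibroblast markers 6 were measured and 1 rose, CNN1, which encodes the contractile protein calponin, by 1.98 ± 0.47 (SE; adjusted p = 0.0294, limma), with a summed level of 13.89 to 15.24 in CTEPH and 13.67 to 14.15 in Sham. CNN1 lost its call in 6 of 10 refits without 1 library. The median difference of the myofibroblast list was 0.19. POSTN was at 0.70 ± 0.20, TAGLN at 0.30 ± 0.20, FAP at 0.09 ± 0.22, MEOX1 at 0.07 ± 0.30 and ACTA2 at 0.009 ± 0.27 (SE), and none of these passed. In bulk tissue, fewer cells of a type and less RNA per cell cannot be told apart, and the part of cell composition in the collagen differences was not tested.

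Among the other cell types of the ventricle, the cardiomyocyte, macrophage, endothelial and Schwann cell lists each held 1 called marker. Of 8 cardiomyocyte markers 7 were measured and MYL2 rose, by 0.99 ± 0.21 (SE; adjusted p = 0.0173, limma), a call lost in 1 of 10 refits without 1 library. Their summed level was 21.18 to 21.49 in CTEPH and 20.95 to 21.46 in Sham, with a median difference of -0.14. CKM was at -0.62 ± 0.21, MYBPC3 at -0.54 ± 0.23, TNNI3 at -0.34 ± 0.27, ACTC1 at -0.14 ± 0.25 and RYR2 at -0.04 ± 0.24 (SE). TNNT2 was at 0.12 ± 0.20 (SE), and none of these other cardiomyocyte markers passed. All 7 macrophage markers were measured and LYZ, which encodes lysozyme, rose by 2.38 ± 0.55 (SE; adjusted p = 0.0279, limma), a call lost in 5 of 10 refits. CD163 was at 0.91 ± 0.32 and CD68 at -0.50 ± 0.20 (SE), and the summed macrophage level was 13.06 to 14.27 in CTEPH and 12.71 to 13.55 in Sham. Among 7 of 8 endothelial markers TEK fell by 0.78 with an SE of 0.17, and the summed level was 14.55 to 14.95 in CTEPH and 14.75 to 15.54 in Sham. All 7 had negative differences, with a median of -0.41, and 4 reached a p under 0.05 by limma before adjustment, beside 20.3% of all genes. Of the 8 smooth muscle and pericyte markers 0 passed by limma, and 3 reached a p under 0.05 before adjustment, beside 20.3% of all genes. These were PDGFRB at -0.54 ± 0.19, RGS5 at -0.61 ± 0.26 and KCNJ8 at 0.43 ± 0.18 (SE). The list's median difference was -0.29, and its summed level was 14.14 to 14.81 in CTEPH and 14.65 to 15.12 in Sham. Among 5 of 6 Schwann cell markers SOX10 fell by 1.09 with an SE of 0.26, and the summed level was 8.01 to 9.04 against 8.86 to 10.06. All 5 had negative differences, with a median of -1.06, and 3 reached a p under 0.05 by limma before adjustment, beside 20.3% of all genes. Of 7 chondrocyte markers SOX9 was the 1 measured, at -0.89 ± 0.26 (SE; adjusted p = 0.0760, limma), and it is not particular to cartilage. TEK and SOX10 each lost their call in 5 of 10 refits without 1 library. All 5 measured proliferation markers of 6 rose, with a summed level of 10.58 to 12.36 in CTEPH and 8.77 to 9.35 in Sham, with AURKB losing its call in 9 of 10 refits, and their part in the collagen differences was not tested either.

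The genes that fold, export, crosslink, bind and degrade collagen were counted from 7 lists, chosen with earlier results of these data known. Of 78 measured genes 9 rose and 0 fell, or 11.5% higher against 2.83% of all genes. Of all genes 1.79% fell. An unadjusted p under 0.05 was reached by 29 of the 78, beside 20.3% of all genes. Among the 29, P3H1, PCOLCE2, ITGA2, SOX9 and SMAD3 had negative differences and the others positive ones. The median difference over the 78 was 0.20. Intracellular folding and hydroxylation had 0 of 16 called by limma and 4 with p under 0.05 before adjustment, with the chaperone FKBP10 nearest, at 0.69 ± 0.21 (SE; adjusted p = 0.0823). The collagen chaperone SERPINH1 was at 0.59 ± 0.20 (SE; adjusted p = 0.118, limma). P3H1 of the same list was at -0.41 ± 0.16 (SE; adjusted p = 0.181, limma). In export and processing 1 of 11 rose, SEC24D, a coat protein of the vesicles that carry procollagen, by 0.53 ± 0.14 (SE; adjusted p = 0.0467, limma), lost in 9 of 10 refits without 1 library.

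Crosslinking held 2 rising genes of 7, the lysyl oxidases LOXL2 and LOXL1. LOXL2 was at 10.20 in s1, 10.91 in s3, 11.40 in s4, 10.63 in s5 and 10.25 in s9, and in Sham between 8.64 and 9.73. LOXL1 was at 8.38 in s1, 9.97 in s3, 11.54 in s4, 10.22 in s5 and 8.56 in s9, and in Sham between 7.26 and 7.69. Both had all CTEPH pigs above all Sham pigs, and s4 high with s1 and s9 low, as for COL8A1 and COL12A1. LOXL1 lost its call in 2 of 10 refits without 1 library and LOXL2 in 0.

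Collagen receptors had 2 rising genes of 9. CD44, a receptor for hyaluronan that also binds collagen, rose by 1.73 ± 0.34 (SE; adjusted p = 0.0133, limma), from 9.75 ± 0.322 to 11.48 ± 0.878 (± SD over 5 pigs each). ITGA10, a collagen-binding integrin chain, rose by 1.36 ± 0.31 (SE; adjusted p = 0.0274, limma), lost in 6 of 10 refits. The collagen receptors DDR1 and ITGA11 were at 1.0 ± 0.29 and 1.497 ± 0.43 (SE) and did not pass (adjusted p = 0.0676 and 0.0692, limma). In the other direction, ITGA2 of the same list was at -0.86 ± 0.28 (SE) and did not pass (adjusted p = 0.106, limma).

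Among 16 fibril partners 2 rose, the small proteoglycan ASPN by 1.21 ± 0.24 and CTHRC1, a secreted protein with a short collagen-like stretch, by 2.54 ± 0.66 (SE; adjusted p = 0.0140 and 0.0448, limma). CTHRC1 lost its call in 8 of 10 refits without 1 library and ASPN in 0. Of 14 regulators of collagen transcription 2 rose, CCN2 by 2.33 ± 0.50 and TGFB2 by 0.95 ± 0.24 (SE; adjusted p = 0.0198 and 0.0442, limma), lost in 2 and 8 of 10 refits. The median difference of the 14 was -0.24. Of 5 collagen-degrading proteases 0 passed by limma and 0 had p under 0.05 before adjustment, with the membrane protease MMP14 nearest at -0.49 ± 0.23 (SE; adjusted p = 0.247).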

How the data were processed

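RNA-seq libraries of right ventricle from 10 pigs were analysed, 5 CTEPH and 5 Sham. Per the submitters' processing notes, the authors used bcl2fastq 2.18.12, cutadapt 1.15, FastQC 0.11.5, featureCounts, edgeR 3.36.0, limma 3.50.0 and build Sscrofa11.1. The kit was a stranded total RNA kit, per the labels, which also name polyA RNA. No source used here names the aligner, the annotation, the strand setting or any low-count filter.

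Deposited by the authors were quantile-normalized log2 values of doubled counts plus 1, as read from the values, with the counts as printed here. Of these, 80.7% could be read back as whole counts up to a common factor (error at most 5.0e-09), which gave relative depth as the median ratio to the geometric mean over 10374 genes. Quantile normalization hides a change shared by most genes, and the 1 added compresses differences of genes with few counts.

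Symbols came from a table that gave 12378 genes a symbol, and coordinates from RefSeq by symbol. No sequence is printed. Groups were compared over all genes with limma 3.58.1 in R 4.3.3 (intensity trend, two-sided, Benjamini-Hochberg, threshold 0.05), after a test on simulated data. Of 16 listed chain pairs 12 were measured and tested with exact permutation over 252 assignments of pigs. A summed list level is log2 of the sum of linear values. Alternatives were no intensity trend, robust variances, library weights, a filter on low genes, voom on recovered counts and leaving out each library. The members, gene lists, pairs and tests were chosen with earlier results of these data known. Every measured member is given its difference, and values in each library are given for members called, members with an unadjusted p under 0.05 and COL1A1, COL1A2, COL3A1, COL4A1, COL4A2, COL5A1, COL6A1, COL6A3, COL14A1 and COL15A1. The values by library of COL18A1 and COL6A6, and the counts of low members, were added after they were seen. Of each pathway list the called genes are named, or else the 1 with the smallest p. SERPINH1, DDR1, ITGA11, ITGA2, P3H1, PCOLCE2, SOX9 and SMAD3 were added to these after their values were seen.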

Additional observations from a re-analysis of the deposited data

Results flagged for a closer look

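A library far from the other 4 of its group, by Dixon's ratio at the 95% level, was looked for in 62 groups (31 genes in 2 groups), where chance alone would mark about 1 in 20. COL4A3 in CTEPH library s4 was at 1.43, with the other CTEPH pigs at 4.25 to 5.11, on 3 counts against 6 to 16. COL3A1 in Sham library s7 was at 16.06, below the other Sham pigs at 16.57 to 16.76. COL21A1 in Sham library s8 was at 9.74, above the others at 9.18 to 9.34. None of the 3 genes was called.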

How the results depend on the processing

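Calls over all genes moved from 723 to 1269 with library weights, and between 401 and 961 when 1 library was left out. The count of rising collagen genes, 4 of 31, lay between 3 and 7 without 1 library and was 1 with voom on recovered counts, where 12 members could be fitted and COL8A1, COL4A5 and COL12A1 were not among them. The falling count, 1, lay between 0 and 1 without 1 library, and was 0 without CTEPH s4 or Sham s2, s6 or s8. Pairs that passed numbered 2, and 2 to 4 without 1 library. No direction changed among the 11 members with an unadjusted p under 0.05 in any alternative; of the other 20, 8 changed sign in at least 1 and 1 was called in at least 1. COL13A1 also lost its call without an intensity trend (adjusted p = 0.0599, limma) and among the 21 members left by the filter on low genes it was not tested. With a few counts, as for COL11A1 or COL4A3, depth limits what can be seen.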

Other observations

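COL17A1 had 24 and 30 counts in CTEPH libraries s1 and s4 and 6 to 8 in the other CTEPH pigs, beside 3 to 13 in Sham. These counts are not adjusted for depth. On the log2 scale s1, s4 and s9, at 5.68, 5.21 and 4.25, lay above every Sham pig, the highest of which was at 4.21. Libraries s3 and s5, at 4.18 and 3.76, lay within the Sham range. COL6A6 lay above every Sham pig in s4 and s5 and below every one in s1, s3 and s9, at 11.07, 11.44, 10.06, 9.88 and 10.43.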
